A study of Caenorhabditis elegans with 12 samples.

Results

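The miR-58 family is the *C. elegans* relative of the bantam miRNA of flies. Its members were taken by name, as every entry called miR-58a, miR-58b, miR-80, miR-81, miR-82 or miR-1834 with either arm, which gave 9 of the 263 distinct miRNA names in the count data. These were the 3p and 5p arms of miR-58a, miR-80, miR-81 and miR-82, and miR-58b-5p. The match found no entry for the 3p arm of miR-58b or for miR-1834, so they were not analysed here. The names were matched without use of any measured value, although members and lists were chosen with earlier results of these data known.

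The 12 small RNA libraries came from whole wild-type N2 worms placed on treatment plates as L4 larvae and kept for 5 d at 20 °C with OP50 bacteria as food. Nar + Glu worms (n = 3) received 25 μM naringin (Nar, a citrus flavonoid) with 2% glucose and the solvent at 0.1% DMSO, DMSO + Glu worms (n = 3) received 2% glucose and 0.1% DMSO, Glu worms (n = 3) received 2% glucose, and Control worms (n = 3) grew on the standard medium alone. All groups on glucose are high-glucose-induced (HGI) worms. The labels do not say that replicates were separate cultures, so that the p-values measure the spread between these libraries, which may be technical.

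A miRNA precursor is a hairpin that is cut into a 5p and a 3p strand, of which usually only 1 is loaded into an Argonaute protein and kept. The loaded strand pairs with messenger RNAs mainly through a short stretch near its 5′ end, the seed. The 3p arms of miR-58a, miR-80, miR-81 and miR-82 share their seed, and the family is known in *C. elegans* for acting redundantly: worms that lack these genes together are small and defective in egg laying. Known targets include receptor genes of the TGF-β pathway, which sets body size and dauer entry. Loss of *mir-80* alone is known to give a state that resembles dietary restriction. Bantam of *Drosophila* promotes growth and blocks cell death.

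The genes lie at 4 places in the genome (build WBcel235). *mir-58a* is at chrIV:3233254-3233350 on the plus strand, inside the gene *Y67D8A.2* of the same strand. *mir-58b* is at chrIV:6660461-6660519 on the minus strand and overlaps no protein-coding gene, as is also the case for *mir-80* at chrIII:8865270-8865367 on the minus strand. *mir-81* (chrX:2431072-2431179, plus strand) and *mir-82* (chrX:2435258-2435354, minus strand) are neighbours 4078 bp apart, both inside *gid-2*, a minus-strand gene. *mir-81* is therefore antisense to its host gene and *mir-82* is sense to it. None of these hairpins overlaps a coding exon.

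Library totals ranged from 2640879 to 5868806 miRNA counts, and 1 miRNA that is not a member, the muscle miRNA miR-1-3p, took 28.9% to 34.6% of the counts in Nar + Glu, 38.5% to 40.8% in DMSO + Glu, 40.03% to 43.5% in Glu and 38.1% to 48.2% in Control. Levels of the members are therefore given as CPM, counts scaled to library size. Sizes were adjusted by the trimmed mean of M-values (TMM), a scaling that takes most miRNAs as unchanged. For the printed levels TMM used all 12 libraries. For each log2 fold change (log2FC) and its p it used only the 6 libraries of the contrast. A log2FC can therefore differ from the one that the printed levels give. Whole worms were sequenced, so fewer cells of a type and less miRNA per cell cannot be told apart. The markers fixed for muscle, neurons, intestine, embryo with germline, and seam with adult hypodermis were all detected in every group. The intestinal marker miR-60-3p had 2231 to 2382 CPM of total counts in Nar + Glu, against 1241 to 1668 in DMSO + Glu. The neuronal marker miR-124-3p had 9.87 to 14.7 CPM in Nar + Glu, against 4.03 to 6.73 in DMSO + Glu. Its lowest count was 31 in Nar + Glu and 14 in DMSO + Glu, so these values carry a large counting error. The summed embryo and germline markers (8 of 8 listed) had 126990 to 162835 CPM in Nar + Glu, against 123438 to 150640 in DMSO + Glu, and let-7-5p, the hypodermal marker, had 984 to 1420 CPM in Nar + Glu, against 1388 to 1513 in DMSO + Glu. All these marker values are CPM of total counts, without TMM. On that scale the median log2FC of all miRNAs tested was 0.37 for Nar + Glu against DMSO + Glu. The part of these markers in the values below was not tested.

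The family took a large part of the miRNA counts, and most of it was the 3p strand of miR-58a. Its share was 18.2%, 18.6% and 21.0% of the counts in Nar + Glu replicates 1, 2 and 3, and 19.8%, 17.2% and 17.6% in DMSO + Glu. The Glu libraries had 22.3%, 19.6% and 14.2%, and the Control libraries 21.0%, 17.1% and 14.3%. The ranges of the 4 groups overlapped. cel-miR-58a-3p made up 65.3% to 76.5% of the family counts in the 12 libraries and was the second most abundant miRNA in each of them, with a mean of 505109 counts.

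The other 3p arms followed in a nearly fixed order. cel-miR-80-3p had a mean of 108873 counts (rank 8 of 263), cel-miR-82-3p 78326 (rank 10) and cel-miR-81-3p 11541 (rank 26). miR-58a-3p exceeded miR-80-3p in 12 of 12 libraries, miR-80-3p exceeded miR-82-3p in 11 of 12, and miR-82-3p exceeded miR-81-3p in 12 of 12. The exception was DMSO + Glu replicate 2, with 81372 counts of miR-80-3p and 87293 of miR-82-3p. These are read counts, and how well a strand is captured in a library can differ between sequences.

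The 5p arms, the strands that are mostly discarded, were scarce and did not follow the order of their 3p partners. cel-miR-80-5p was the most abundant of them with a mean of 2675 counts (rank 49), above cel-miR-58a-5p with 428 (rank 86), cel-miR-82-5p with 274 (rank 99) and cel-miR-81-5p with 93.6 (rank 139). cel-miR-58b-5p had 6 to 14 counts in a library, so its values carry a large counting error. Every member passed the filter on low counts in every comparison, and no member had the same counts as another miRNA in the files.

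The most abundant member spread widely between replicates. In Nar + Glu, miR-58a-3p had 105822, 99559 and 116139 TMM-scaled CPM, and in DMSO + Glu it had 167824, 117541 and 124328. In Glu it had 221203, 138359 and 94882, and in Control 159668, 153364 and 99935. Replicate 1 of Glu was thus far above replicate 3 of the same group, and replicates 3 of Glu and Control were the lowest of their groups. miR-82-3p in the same Glu libraries had 22660, 21243 and 21497, a narrow range.

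**Figure D1:**
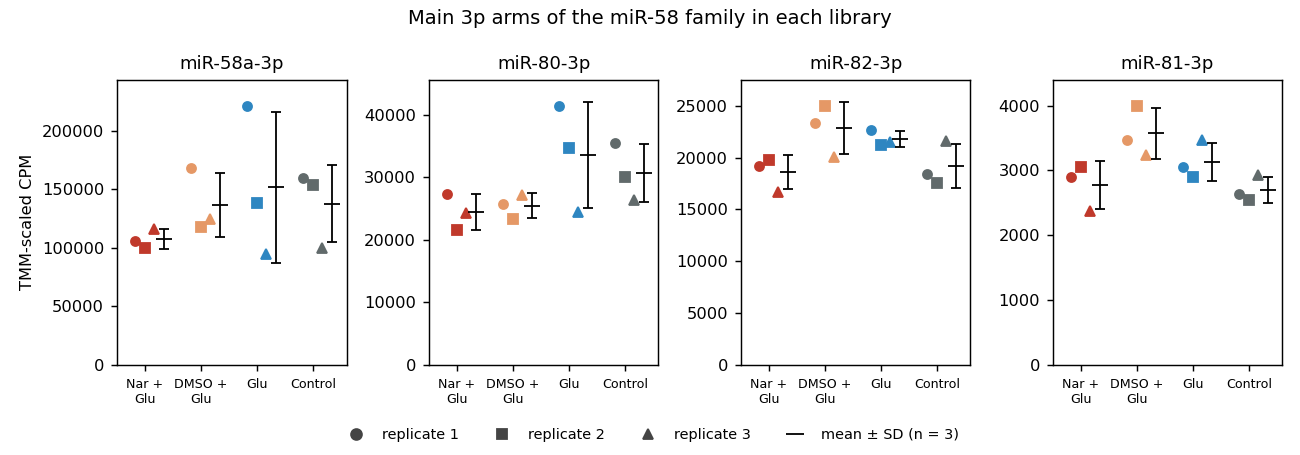
Levels of the 4 main 3p arms in TMM-scaled CPM (y axes from 0, each on its own scale) for the 3 libraries of each group, with symbols for the replicate and the mean with its SD beside them. miR-58a-3p and miR-80-3p spread widely in Glu, from 94882 to 221203 and from 24514 to 41445, whereas the 3 Nar + Glu libraries lie below the 3 DMSO + Glu libraries for miR-58a-3p, miR-82-3p and miR-81-3p.

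Ratios between members do not depend on how libraries are scaled, and members differed in how closely they kept together. The 3p counts of miR-81 and miR-82 kept almost the same proportion everywhere. miR-81-3p had 134 to 161 counts for every 1000 of miR-82-3p over the 12 libraries. The pooled SD of this ratio within groups was 0.09 on the log2 scale. The ratio of miR-80-3p to miR-58a-3p had a pooled SD of 0.23, that of miR-82-3p to miR-58a-3p of 0.44, and that of miR-81-3p to miR-58a-3p of 0.49. miR-82-3p thus ranged from 102 counts for every 1000 of miR-58a-3p (Glu replicate 1) to 227 (Glu replicate 3), the extremes being in 1 group. The sources used here do not say how reads that match both miR-81-3p and miR-82-3p were counted. The part of such reads in the steady ratio of this pair is therefore unknown.

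No treatment was found to move these ratios. The 4 ratios were compared in 3 contrasts, and the smallest p of a two-sided exact permutation test was 0.3 (3 libraries against 3), with 0.9 after Benjamini-Hochberg adjustment over the 12 tests. Groups of 3 cannot give a p below 0.1 in this test. The largest differences were those of miR-80-3p to miR-58a-3p, at 0.27 for Nar + Glu minus DMSO + Glu and -0.29 for DMSO + Glu minus Glu on the log2 scale, both close to the SD within groups.

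**Figure D2:**
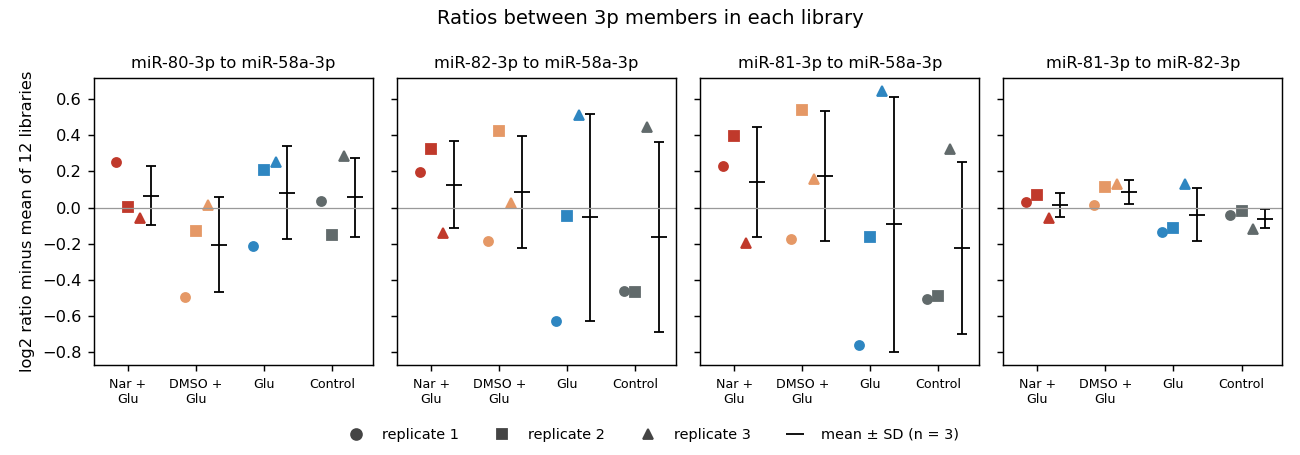
Log2 ratio of counts between pairs of 3p members in each library, centred on the mean of the 12 libraries (y axis shared), with the mean and SD of each group. The points of miR-81-3p to miR-82-3p stay close to 0 in all groups, and the ratios of miR-82-3p and miR-81-3p to miR-58a-3p spread by more than 1 log2 unit within Glu.

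The first contrast asked what Nar changed in HGI worms, with DMSO + Glu as the solvent reference. On the TMM scale, all 3 Nar + Glu libraries were below every DMSO + Glu library for 5 members. These were both arms of miR-81 and miR-82, the chromosome X pair, and miR-58a-3p. In edgeR's quasi-likelihood test 3 of the 9 members passed an adjusted p under 0.05, all downregulated: miR-81-3p, miR-81-5p and miR-82-5p. These directions hold on the TMM scale and relative to the other miRNAs. With libraries scaled by total counts alone, 6 of the 9 members turned to a positive log2FC and none of these 3 passed. Of the 219 miRNAs tested, 21.5% passed in either direction and 11.9% passed as lower.

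miR-81-3p had 2899, 3059 and 2366 TMM-scaled CPM in Nar + Glu, against 3471, 3998 and 3243 in DMSO + Glu. The groups did not overlap, although the gap between 3059 and 3243 was small beside the spread in each group. The log2FC was -0.43 ± 0.13 (SE, n = 3 each; edgeR adjusted p = 0.0306). With all 12 libraries in 1 fit it was -0.36 (edgeR adjusted p = 0.0809). The call was lost without any 1 of the 6 libraries: the adjusted p was 0.0859, 0.217 and 0.0616 without DMSO + Glu replicates 1, 2 and 3, and 0.116, 0.0566 and 0.167 without Nar + Glu replicates 1, 2 and 3.

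Its neighbour miR-82-3p had 19231, 19799 and 16707 TMM-scaled CPM in Nar + Glu, against 23360, 25022 and 20089 in DMSO + Glu. All Nar + Glu libraries were again the lower ones, by the same pattern of a low replicate 3 in both groups. Its log2FC of -0.36 ± 0.13 (SE) had an edgeR adjusted p of 0.0500067, which is just above the threshold and is not a call.

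The 5p arms of this pair were scarcer. miR-81-5p had 12.1, 20.8 and 19.1 TMM-scaled CPM in Nar + Glu, from 44, 84 and 66 counts, against 27.6, 26.4 and 26.0 in DMSO + Glu, from 95, 92 and 85 counts. The 3 DMSO + Glu libraries were nearly equal, and replicate 1 of Nar + Glu was far below the other two. The log2FC was -0.68 ± 0.20 (SE; edgeR adjusted p = 0.0306), and miR-81-5p was the 1 member past the thresholds of the study, a fold change over 1.5 with an unadjusted p under 0.05, which 13.2% of all miRNAs passed. Without Nar + Glu replicate 1 the log2FC was -0.42 (edgeR adjusted p = 0.144), and the adjusted p was 0.0963, 0.0787 and 0.083 without DMSO + Glu replicates 1, 2 and 3. The call remained without Nar + Glu replicate 2 (0.0266) or replicate 3 (0.00531).

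miR-82-5p had 54.8, 57.3 and 46.8 TMM-scaled CPM in Nar + Glu, against 68.2, 81.4 and 63.1 in DMSO + Glu. Its groups did not overlap, and its log2FC was -0.48 ± 0.14 (SE; edgeR adjusted p = 0.0268). This call too was lost without any 1 library, with adjusted p from 0.0577 (without DMSO + Glu replicate 3) to 0.198 (without DMSO + Glu replicate 2), and it did not hold in the DESeq2 test (DESeq2 adjusted p = 0.0514).

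For miR-58a-3p the values given above did not overlap either, with 116139 as the highest Nar + Glu value and 117541 as the lowest DMSO + Glu value. The log2FC was -0.42 ± 0.15 (SE; edgeR adjusted p = 0.0642), as large as that of miR-81-3p with a wider error. DMSO + Glu replicate 1, at 167824, decided much of it: without that library the log2FC was -0.22 (edgeR adjusted p = 0.229). Without DMSO + Glu replicate 2 or Nar + Glu replicate 3 the adjusted p was 0.0256 and 0.0209.

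On the TMM scale, miR-80, whose loss is the one tied to dietary restriction, showed the least difference of the 3p arms. With total counts alone its 3p arm had the largest of them (log2FC 0.31, edgeR adjusted p = 0.0299). miR-80-3p had 27351, 21636 and 24228 TMM-scaled CPM in Nar + Glu, against 25787, 23325 and 27204 in DMSO + Glu, and these ranges overlapped. Its log2FC was -0.13 ± 0.12 (SE; edgeR adjusted p = 0.497), and -0.06 with all 12 libraries in 1 fit. miR-80-5p (log2FC -0.28, edgeR adjusted p = 0.165), miR-58a-5p (-0.12, 0.589) and miR-58b-5p (-0.65, 0.246) did not pass. In all, 5 of 9 members had groups that did not overlap, all lower in Nar + Glu, against 36.5% of all miRNAs in either direction and 16.0% as lower. The median log2FC was -0.42 over the 9 members and -0.06 over the 219 miRNAs tested, and 9 of 9 members and 124 of 219 miRNAs had a negative log2FC. Both arms of a gene come from 1 precursor, so the members are not independent of each other. Reads that match both miR-81-3p and miR-82-3p, if counted for both, would tie these members as well.

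**Figure D3:**
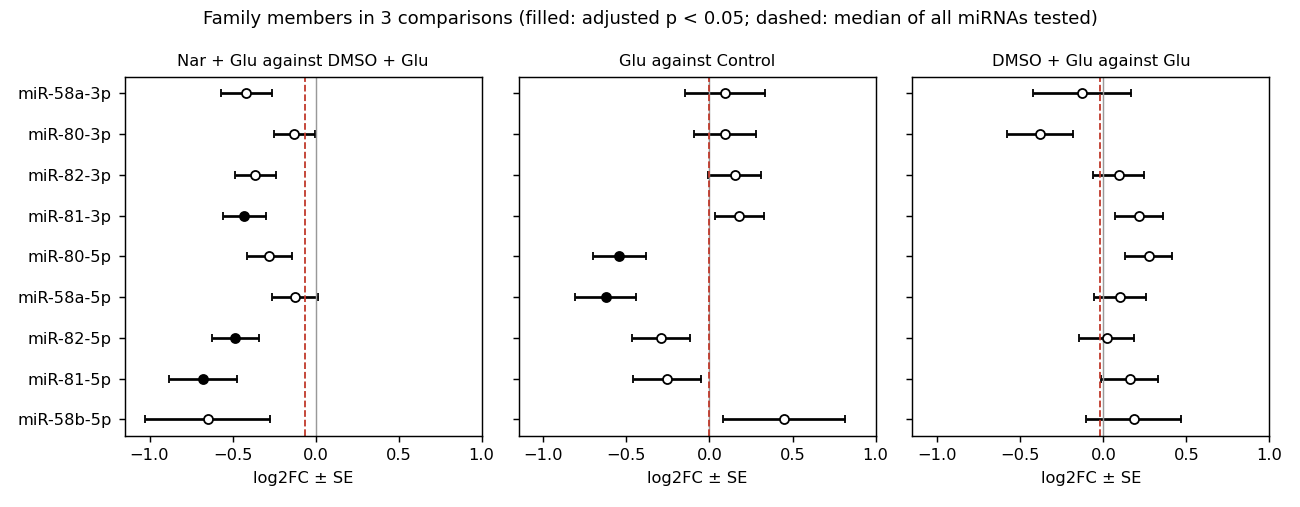
Log2FC with its SE (x axis, TMM scale, edgeR) of the 9 members in the 3 comparisons, with filled points for an adjusted p under 0.05 and a dashed line at the median of all miRNAs tested. All 9 members lie below 0 for Nar + Glu against DMSO + Glu, and for Glu against Control 2 of the 5p arms are called lower while the 3p arms lie at 0.09 to 0.18.

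The sign of this difference depends on the scaling of the libraries, which differed in the part taken by miR-1-3p, as given above. The median log2FC of all miRNAs tested was -0.06 with TMM, 0.21 with total counts other than miR-1-3p and 0.37 with total counts alone. With total counts alone, miR-58a-3p had a log2FC of 0.04, miR-81-3p 0.0066, miR-82-3p 0.08, and miR-80-3p 0.31, which passed as higher (edgeR adjusted p = 0.0299). Relative to the median of all miRNAs the values hardly moved: miR-81-3p was at -0.36 with TMM and -0.37 with total counts alone, miR-58a-3p at -0.35 and -0.33, miR-82-3p at -0.30 under both, miR-81-5p at -0.61 under both, and miR-80-3p at -0.06 under both. The share of the family in all counts was 19.3% ± 1.51 in Nar + Glu and 18.2% ± 1.42 in DMSO + Glu (SD, n = 3 each), a difference within the spread of the libraries. Leaving miR-1-3p out of the total, the share was 28.6% ± 0.862 in Nar + Glu and 30.1% ± 1.78 in DMSO + Glu.

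**Figure D4:**
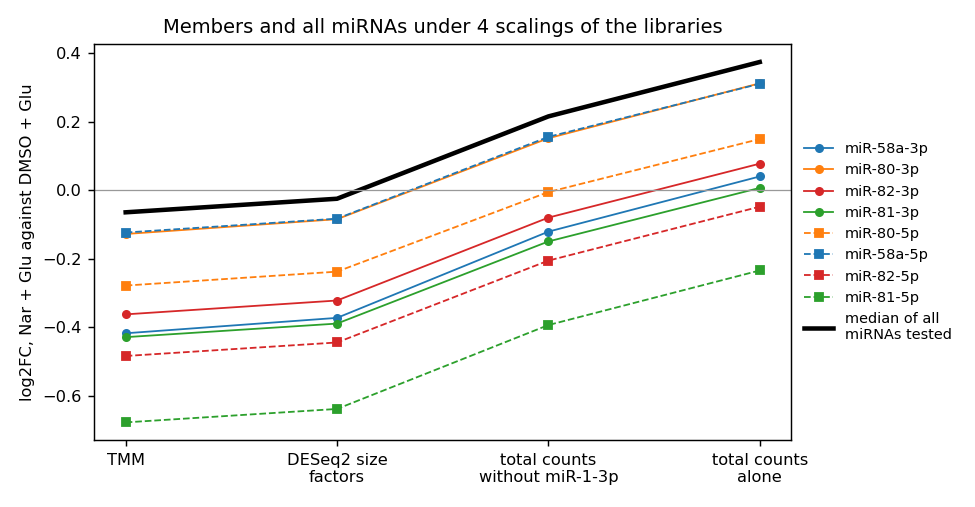
Log2FC of the better counted 8 members for Nar + Glu against DMSO + Glu (y axis) under 4 scalings of the libraries (x axis), with the median of all miRNAs tested as a thick line. All lines run in parallel and below the median, which is at -0.06 with TMM and at 0.37 with total counts alone.

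The second contrast asked what high glucose changed, with Control libraries that were all deeper than the Glu libraries, as given above. Glu worms had lower levels of the discarded strands of miR-58a and miR-80 than Control worms, while no 3p arm passed the test. These 2 of 9 members, miR-58a-5p and miR-80-5p, were downregulated with an adjusted p under 0.05, against 8.52% of the 223 miRNAs tested in either direction and 4.93% as lower. The calls were lost when libraries were scaled by total counts (edgeR adjusted p = 0.18 for miR-58a-5p and 0.232 for miR-80-5p), with log2FC of -0.59 and -0.50 there.

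miR-58a-5p had 78.3, 103 and 101 TMM-scaled CPM in Glu, against 124, 130 and 173 in Control. The groups did not overlap, and replicate 3 of Control was the highest. The log2FC was -0.63 ± 0.18 (SE, n = 3 each; edgeR adjusted p = 0.029), and this member also passed the thresholds of the study, as did 13.9% of all miRNAs. It was still called without Control replicate 1 (adjusted p = 0.0433) or Glu replicate 3 (0.00702), and not without Control replicate 2 (0.0606), Control replicate 3 (0.261), Glu replicate 1 (0.141) or Glu replicate 2 (0.0831).

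miR-80-5p had 532, 550 and 676 TMM-scaled CPM in Glu, against 751, 828 and 924 in Control. Here too the highest Glu value was below the lowest Control value. The log2FC was -0.54 ± 0.16 (SE; edgeR adjusted p = 0.0273). The same 2 libraries could be left out with the call kept (adjusted p = 0.0458 and 0.00474), and the adjusted p was 0.109, 0.199, 0.106 and 0.113 without Control replicates 2 and 3 and Glu replicates 1 and 2.

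The 3p arms of all 4 genes had log2FC of 0.09 (miR-58a-3p and miR-80-3p), 0.18 (miR-81-3p) and 0.15 (miR-82-3p), with edgeR adjusted p from 0.464 to 0.855. miR-58a-3p was the least certain of them, with an SE of 0.24, and its log2FC was -0.27 without Glu replicate 1 and 0.42 without Glu replicate 3. For miR-80-3p, with 41445, 34741 and 24514 TMM-scaled CPM in Glu against 35531, 29988 and 26427 in Control, it was -0.07 and 0.35 without these libraries. miR-81-5p (-0.26) and miR-82-5p (-0.29) did not pass. miR-58b-5p had 3.55, 2.99 and 2.94 TMM-scaled CPM in Glu, against 2.48, 2.10 and 2.18 in Control, groups that did not overlap, with 9 to 11 counts in Glu and 10 to 12 in Control (log2FC 0.45, edgeR adjusted p = 0.46). Non-overlap was seen in 3 of 9 members and in 30.9% of all miRNAs.

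The ratio of 5p to 3p counts of the same hairpin needs no scaling, and it was lower in Glu than in Control on average for all 4 hairpins. miR-82 was the clearest. It had 2.85, 2.89 and 2.80 counts of 5p for every 1000 of 3p in Nar + Glu and 2.92, 3.25 and 3.14 in DMSO + Glu. Glu had 3.53, 3.23 and 3.02, against 4.74, 4.32 and 4.28 in Control. The 3 Control libraries were above all 9 libraries on glucose. How often hairpins outside the family were apart in this way was not counted. These Control libraries were also deeper than all 9, and the part of depth was not tested. The log2 difference for Glu minus Control was -0.45, with a p of 0.1 in the two-sided exact permutation test, the smallest that 3 against 3 can give, and 0.6 after adjustment over the 12 arm tests. It does not pass. The counting error of a library is also sizeable: the exact 95% Clopper-Pearson intervals of the 5p share reached up to 0.398% in Glu and down to 0.387% in Control. Such intervals cover counting error only, since reads copied by PCR are not independent molecules.

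miR-81 had 9.21, 7.37 and 6.78 counts of 5p for every 1000 of 3p in Glu, against 11.1, 11.8 and 8.81 in Control, and the ranges overlapped by replicate 1 of Glu (log2 difference -0.44, exact permutation p = 0.2). For miR-80 the values were 12.8, 15.8 and 27.6 in Glu, against 21.1, 27.6 and 34.97 in Control (-0.62, exact p = 0.2), and for miR-58a 0.354, 0.743 and 1.06 in Glu, against 0.774, 0.847 and 1.73 in Control (-0.67, exact p = 0.4). Within both Glu and Control, replicate 3 had the highest ratio for miR-58a and miR-80, and it was also the replicate with the lowest miR-58a-3p. For each of the family hairpins, every Glu library was below the Control library of the same number. The permutation test does not use these numbers.

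A lower balance of this kind in Glu was common outside the family as well. The rarer strand was set against its partner in the 72 other hairpins with both arms counted, and this ratio was below that of Control in 50, with a median log2 difference of -0.25, against 4 of 4 and -0.53 in the family. For Nar + Glu minus DMSO + Glu, the ratio was lower in 3 of 4 family hairpins (median -0.14) and in 21 of 72 others (median 0.14). Of the family hairpins, only miR-82 had groups without overlap there (log2 difference -0.12, exact permutation p = 0.1, adjusted 0.6). Non-overlap was not counted in the 72 others. For DMSO + Glu minus Glu, 2 of 4 family hairpins and 25 of 72 others were lower, with medians of 0.06 and 0.14.

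**Figure D5:**
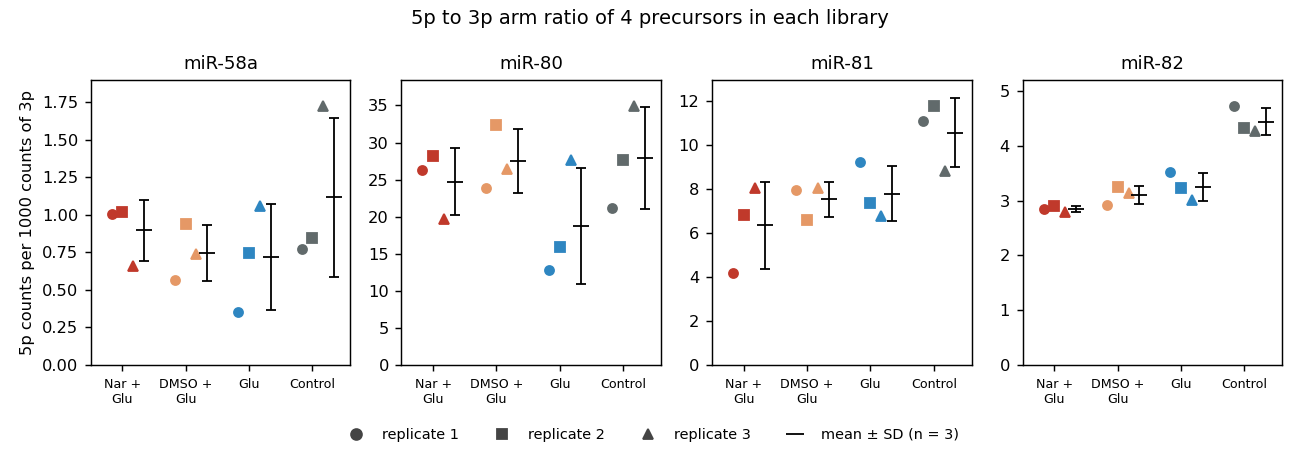
Counts of the 5p arm for every 1000 counts of the 3p arm (y axes from 0, each on its own scale) of the 4 hairpins in each library, with the mean and SD of each group. For miR-82 the 3 Control libraries, at 4.28 to 4.74, stand above the 9 libraries of worms on glucose, at 2.80 to 3.53.

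The third contrast, DMSO + Glu against Glu, shows what the solvent changed. No member passed, and 0 of the 215 miRNAs tested passed an adjusted p under 0.05 in edgeR (0% called), with 22 at an unadjusted p under 0.05. DESeq2 also called 0, with 15 at an unadjusted p under 0.05. The thresholds of the study were passed by 0 of 9 members and 6.05% of all miRNAs, and groups were apart in 0 of 9 members and 18.1% of all. miR-80 had the largest of the better counted differences, with its arms on opposite sides of 0: miR-80-3p had 25787, 23325 and 27204 TMM-scaled CPM in DMSO + Glu, against 41445, 34741 and 24514 in Glu (log2FC -0.38 ± 0.20 SE, edgeR adjusted p = 0.459), and miR-80-5p had 615, 754 and 720 in DMSO + Glu, against 532, 550 and 676 in Glu (0.27 ± 0.14 SE, 0.459). Glu replicate 3 was the one low Glu library for miR-80-3p, and without it the log2FC was -0.52. This contrast shares its DMSO + Glu libraries with the first and its Glu libraries with the second, so the values are not independent of those given before.

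The family was also compared with other miRNAs over the 12 libraries, by the correlation of log2 CPM (TMM scale) with the mean of the 4 main 3p arms, among 130 other miRNAs with a mean count of at least 100. The values are descriptive, since the 12 libraries share groups and a scaling. Highest were miR-59-3p (Pearson's r = 0.74), miR-39-3p (0.72) and miR-37-3p (0.71) of the embryonic miR-35 family, lin-4-5p (0.67), a timer of larval development, and miR-1-3p (0.67). The order was not stable under scaling by total counts alone, where miR-59-3p had an r of 0.03, miR-1-3p of -0.82, and miR-39-3p of 0.76. On that scale miR-39-3p was at rank 23 of the 130, and the others named here were at ranks 53 to 130. The r of each main 3p arm with the mean of the others was 0.50 for miR-58a-3p, 0.42 for miR-80-3p, 0.37 for miR-82-3p and 0.03 for miR-81-3p. Such an r does not show the nearly constant ratio of miR-81-3p to miR-82-3p given above. The miRNAs listed before were picked as the highest of 130, so their r cannot be set beside that of the members.

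Of a list of 9 miRNAs known from work on ageing and lifespan in *C. elegans*, 8 were tested. In Nar + Glu against DMSO + Glu, 0 were higher and 2 were lower with an adjusted p under 0.05, beside 21.5% of all miRNAs tested in either direction and 11.9% as lower. These were let-7-5p (log2FC -0.75 ± 0.14 SE, edgeR adjusted p = 0.00215) and lin-4-5p (-0.48 ± 0.12 SE, 0.0112), both timers of larval development. With total counts alone their log2FC was -0.31 (edgeR adjusted p = 0.101) and -0.05 (0.8285), and neither passed. With total counts other than miR-1-3p, let-7-5p passed (-0.48, edgeR adjusted p = 0.0235) and lin-4-5p did not (-0.21, 0.375). None of the 8 passed in the other contrasts. The list median was -0.15 for Nar, beside -0.06 over all miRNAs tested.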

How the data were processed

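Small RNA libraries of 12 whole-worm samples were analysed, grouped by their labels. The authors removed adapters and short fragments with Cutadapt 1.14, quantified miRNAs with mirdeep2 and deposited unnormalized read counts for every sample. The labels also name a poly(A) step. The sources used here give neither the miRBase release nor the rules for mismatches and multi-mapping reads. A combined table was not used. The first entry of each of 5 repeated names, none a member, was kept.

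Comparisons used edgeR 4.0.16 (quasi-likelihood, TMM, R 4.3.3) on 6 libraries, with filterByExpr (minimum count 10, total 15) and Benjamini-Hochberg adjustment over all miRNAs tested. Ratios used a pseudocount of 0.5, a mean count of at least 10 for each arm, and two-sided exact permutation tests. The log2 CPM values for the correlations used a prior count of 2. Gene positions came from the WBcel235 annotation. The fit was run on simulated counts with equal numbers of raised and lowered miRNAs, which cannot show how it handles an unbalanced shift. Chi-square per degree of freedom between replicates was 20.4 to 707, far above sampling noise, and all libraries were kept as separate samples.

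Named miRNAs were all family entries, the 5 others most like the mean of the main 3p arms, miR-1-3p, and members of the ageing list past the test. Members and lists were chosen with earlier results of these data known. Alternatives were DESeq2 size factors, total counts alone or without miR-1-3p, DESeq2 1.42.0, no filter, all 12 libraries in 1 fit, a replicate block, a pseudocount of 5 and each library left out.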

Additional observations from a re-analysis of the deposited data

How the results depend on the processing

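The direction of most members for Nar + Glu against DMSO + Glu depended on the scaling. With total counts alone the log2FC was 0.040 for miR-58a-3p, 0.31 for miR-58a-5p, 0.31 for miR-80-3p, 0.15 for miR-80-5p, 0.0066 for miR-81-3p and 0.077 for miR-82-3p, all negative with TMM, and 91 miRNAs passed the adjusted p and 65 the study thresholds. With total counts other than miR-1-3p it was 0.16 for miR-58a-5p, 0.15 for miR-80-3p and -0.15 for miR-81-3p, and 9 miRNAs passed for Glu against Control. All 5 calls of members were lost under both scalings: with total counts other than miR-1-3p the edgeR adjusted p was 0.509 for miR-81-3p, 0.202 for miR-81-5p and 0.424 for miR-82-5p (Nar), and 0.163 for miR-58a-5p and 0.166 for miR-80-5p (glucose). miR-81-3p was also not called with no filter (-0.37) or with all 12 libraries in 1 fit (-0.36), where 25 miRNAs passed for Nar and 36 for glucose, and where miR-82-5p for DMSO + Glu against Glu had -0.0030. The Nar call of miR-82-5p was lost in both as well (edgeR adjusted p = 0.0539 and 0.0809). The family share less miR-1-3p differed by -1.55 percentage points for Nar + Glu minus DMSO + Glu, beside 1.09 over all counts. The value over all counts became 0.229 when Nar + Glu replicate 3 was left out, and 1.90 or 0.588 when replicate 1 or 2 of DMSO + Glu was. The DESeq2 test called 37 and 25 miRNAs, 2 of them members in each (miR-82-5p for Nar was lost, DESeq2 adjusted p = 0.0514), and passed 8 by the study thresholds for DMSO + Glu against Glu. It gave no adjusted p for miR-58b-5p in the first 2 contrasts. DESeq2 size factors changed no call of a member.

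With the replicate number as a block, 27 miRNAs passed for Nar (47 without it) and 47 for glucose (19 without it), and among the members' calls only that of miR-81-5p for Nar was lost (log2FC -0.69, edgeR adjusted p = 0.0703). With the block the glucose calls had a lower edgeR adjusted p, 0.00108 for miR-58a-5p and 0.000656 for miR-80-5p. Same-numbered libraries deviated together with correlations from -0.445 to 0.537 (Nar), 0.0705 to 0.478 (glucose) and 0.00942 to 0.437 (DMSO). Differently numbered libraries had -0.554 to 0.547, -0.520 to 0.104 and -0.474 to 0.371. These ranges overlapped, and the numbers were not taken as pairs, although for glucose same-numbered libraries were mostly more alike. Each Glu library correlated best with the Control library of its own number, but Control replicate 2 did so with Glu replicate 1 (0.104).

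Leaving out 1 library gave a log2FC for Nar from -0.45 (without DMSO + Glu replicate 2) to -0.22 for miR-58a-3p, from -0.15 to 0.077 for miR-58a-5p, from -0.15 to 0.020 for miR-80-3p and from -0.47 to -0.26 for miR-81-3p, with 17 (without DMSO + Glu replicate 3) to 46 miRNAs called. For Glu against Control it ranged from -0.27 to 0.42 for miR-58a-3p and from -0.073 to 0.35 for miR-80-3p, with 4 (without Glu replicate 2) to 44 (without Glu replicate 3) called. For DMSO + Glu against Glu it ranged from -0.34 to 0.26 for miR-58a-3p, from -0.0081 to 0.21 for miR-58a-5p and from -0.11 to 0.12 for miR-82-5p, with 0 to 12 (without Glu replicate 3) called and 8 to 22 past the study thresholds. Log2 ratios that changed sign were, for Nar, miR-81-3p (-0.21 to 0.15) and miR-82-3p (-0.10 to 0.21) to miR-58a-3p. For glucose they were miR-80-3p (-0.077 to 0.17), miR-81-3p (-0.24 to 0.46) and miR-82-3p (-0.18 to 0.41) to miR-58a-3p, and miR-81-3p to miR-82-3p (-0.063 to 0.068). For DMSO they were miR-81-3p (-0.066 to 0.64) and miR-82-3p (-0.15 to 0.43) to miR-58a-3p, and the 5p to 3p ratios of miR-58a (-0.28 to 0.51) and miR-81 (-0.14 to 0.082). The cause of these changes was not tested. A pseudocount of 5 changed no direction or call of the 24 ratio comparisons. Depth limits miR-58b-5p, at 6 to 14 counts, and miR-81-5p, at 44 to 143.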
